A study of Saccharomyces cerevisiae with 593 samples.

Results

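The arrays described here followed a Saccharomyces cerevisiae strain in which the HIS3 deletion of its parent had been repaired, labelled HIS+. RNA of cells kept without histidine for 5, 10, 20 or 40 min was compared on 2-colour arrays with RNA of untreated cells of the same strain taken at the same time. The arrays were chosen by their titles, with no use of measured values. They are 31 of the 593 arrays of the collection and 16 of its 311 array identifiers, where an identifier stands for 1 pair of RNAs, and they give 4 replicates at each of the 4 times. The same course in a strain that carries the his3 ORF deletion, labelled his- (32 arrays, 16 identifiers), was used for comparison. Each strain was measured against its own untreated culture, so the ratios do not show whether the untreated strains differed. The labels name no other allele and do not give the medium or say whether replicates came from separate cultures, so p-values measure the spread between these samples, which may be technical.

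HIS3 encodes an enzyme of histidine synthesis, and a cell with the intact gene can make the amino acid when the medium no longer supplies it. When an amino acid runs short, uncharged tRNA activates the kinase Gcn2, the translation of GCN4 mRNA rises, and the transcription factor Gcn4 raises genes of amino acid and purine synthesis, a response called general amino acid control. Starved yeast also commonly lowers the genes that make ribosomes.

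Each value below is a log2 ratio of the depleted over the control culture, averaged over 6 spot copies of an oligo and over both dye orientations of an identifier. The fit covered 1457 named oligos of 982 genes, and an oligo was called where limma's Benjamini-Hochberg adjusted p was under 0.05 over all of them. Genes with several oligos have them numbered by place on the array, since what each oligo reads (exon, intron or junction) is not given in the sources used here. Oligos of near-identical gene copies, such as paired ribosomal protein genes, may read both copies. Replicates 1 and 4 came from the batch called A here, replicate 2 from batch B and replicate 3 from batch C, as the first field of the titles gives it, and each batch held both strains at all times. At 20 min, HIS+ replicate 2 has the depleted culture in Cy3 only, so a dye effect does not cancel in it.

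Responses in the HIS+ strain were small at every time. The standard deviation of the HIS+ group means over all oligos was 0.115 at 5 min, 0.089 at 10 min, 0.118 at 20 min and 0.096 at 40 min, while in the his- strain it was 0.098, 0.104, 0.167 and 0.219. No oligo of the HIS+ strain had a group mean past 1 in either direction at any time, and 10, 0, 3 and 2 oligos were past 0.5 at 5, 10, 20 and 40 min, against 3, 4, 14 and 47 in the his- strain. Across oligos, the group means of the strains correlated with Pearson's r of 0.410 and Spearman's rho of 0.457 at 5 min, where the strains were most alike, and with r of 0.013, 0.080 and 0.107 and rho of -0.032, 0.047 and 0.042 at 10, 20 and 40 min (a description over 1457 oligos, which are not independent replicates). Pairs of HIS+ replicates had median correlations over oligos of 0.190, 0.097, 0.032 and 0.017 at 5, 10, 20 and 40 min. Pairs of his- replicates had medians of 0.092, 0.209, 0.311 and 0.687, so the HIS+ median was the higher one at 5 min and the lower one afterwards. The dye orientations of a HIS+ identifier had median correlations of -0.200, -0.307, -0.142 and -0.279 at these times (his-: -0.454, -0.418, -0.056 and 0.286). HIS+ arrays of the same orientation had medians of 0.512, 0.415, 0.338 and 0.316 in Cy5 and 0.554, 0.460, 0.450 and 0.433 in Cy3. The mean dye effect had a standard deviation over oligos of 0.186, larger than that of the HIS+ group means at every time.

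HIS4, which encodes a multifunctional histidine synthesis enzyme, rose slightly in the HIS+ strain over the course as a whole. Its HIS+ replicates stood at 0.23, -0.005, 0.12 and 0.92 at 5 min, at -0.08, 0.31, 0.72 and 0.57 at 10 min, at -0.46, 0.65, 0.61 and 0.78 at 20 min, and at 0.23, 0.39, 0.93 and 0.22 at 40 min. Of the 16 values 13 were above 0, and no time stood apart from the others. The mean of the 4 times was 0.38 ± 0.11 (SE, 16 identifiers), a ratio of 1.3, with limma's adjusted p of 0.0342. The call was lost with batch as a random block (adjusted p = 0.0936) and without batch B (adjusted p = 0.0985), and leaving out each of the 16 identifiers in turn lost it 8 times, the highest adjusted p being 0.0779, without replicate 4 of 5 min. In the his- strain, HIS4 was at 0.14 ± 0.30 (SD, n = 4) at 5 min, 1.04 ± 0.66 at 10 min, 1.76 ± 0.71 at 20 min and 2.41 ± 0.38 at 40 min. All HIS+ replicates lay below all his- replicates at 20 and at 40 min.

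HIS5, the aminotransferase of the pathway, had a mean of 0.22 ± 0.09 (SE) over the HIS+ course, and all 16 values were above 0, but it was not called (limma's adjusted p = 0.107). At 40 min the HIS+ replicates were at 0.21, 0.26, 0.33 and 0.17, in a narrow band. The same oligo carried a dye effect: at 40 min its mean was 0.53 with the depleted culture in Cy5 and -0.05 with it in Cy3. In the his- strain the 40 min replicates of HIS5 were at 2.24, 2.43, 1.99 and 1.31. HIS2, the phosphatase of the pathway, had a HIS+ mean of -0.07 (adjusted p = 0.189) and lay between -0.21 and 0.16 in the single HIS+ values. Of the 3 histidine synthesis genes measured, 1 was therefore called in the mean of the HIS+ times, upward, against 4.8% of all oligos called upward there.

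ADE12, which encodes adenylosuccinate synthase of adenine nucleotide synthesis, had the highest mean of the HIS+ course among all oligos. Its replicates were at 0.82, 0.15, 0.27 and -0.02 at 5 min, 0.59, 0.55, 0.70 and 0.14 at 10 min, 0.49, 0.48, 0.68 and -0.33 at 20 min, and 0.38, 0.73, 0.84 and 0.30 at 40 min. The values below 0 were both from replicate 4. The mean of the 4 times was 0.42 ± 0.08 (SE), a ratio of 1.34, with an adjusted p of 0.00171 by limma. It stayed called with batch as a random block (adjusted p = 0.0104), without batch B (0.0269) and with all groups of the collection in the fit (4.68e-04). In the his- strain ADE12 reached 1.19 ± 0.38 (SD, n = 4) at 20 min and 1.54 ± 0.23 at 40 min.

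**Figure D1:**
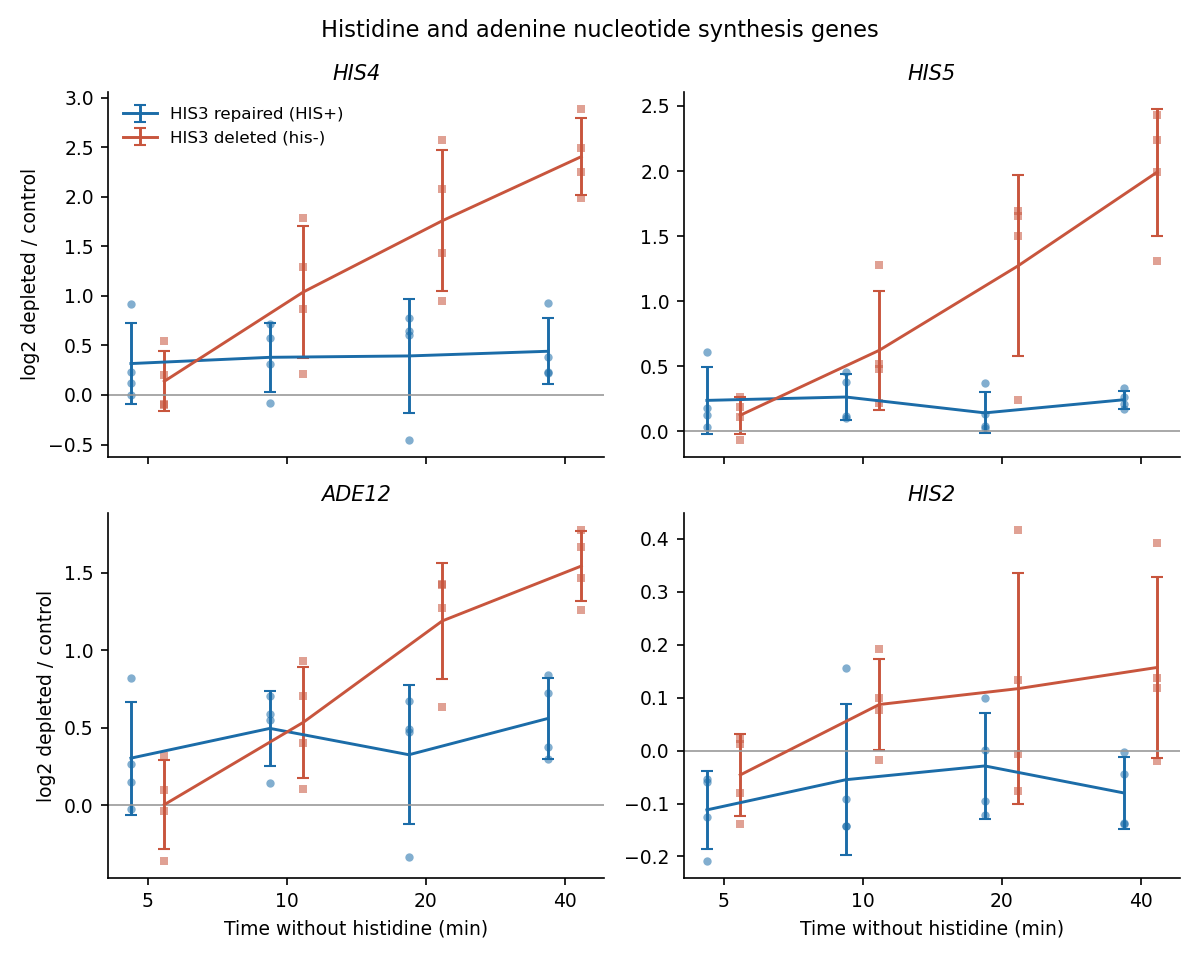
Log2 ratio of the depleted over the control culture for HIS4, HIS5, ADE12 and HIS2 at 5, 10, 20 and 40 min (times are evenly spaced and the vertical scales differ between panels). Circles and squares are the 4 replicates of the HIS+ and his- strains, and lines with bars join the means ± SD; HIS4 stays between 0.32 and 0.44 in the HIS+ means and climbs to 2.41 in the his- strain.

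No regulator of amino acid control was called as raised in the HIS+ strain. Of 8 oligos of 6 genes in this list, none was called upward and 2 were called downward in the mean of the 4 times, beside 4.8% and 3.16% of all oligos: GCN20, a partner of Gcn1, at -0.08 (limma's adjusted p = 0.0496; lost on leaving out 12 of the 16 identifiers), and oligo 3 of ASC1, a ribosome-bound scaffold protein, at -0.17 (adjusted p = 0.025; lost on leaving out 4). Both calls were lost with batch as a random block (adjusted p = 0.18 and 0.101). The median of the list was -0.114, against -0.003 over all oligos. GCN4 mRNA itself was at -0.15, with a 95% interval from -0.30 to 0.01 (adjusted p = 0.23). Its replicate 3 was above 0 at every time and the other replicates below. GCN3, a subunit of the translation initiation factor eIF2B, was at -0.20 (adjusted p = 0.0662), GCN1, the activator of Gcn2, was at -0.01, and the kinase gene GCN2 was at -0.04 (adjusted p = 0.529). The other oligos of ASC1 were at -0.15 and -0.02, and neither was called. Since Gcn4 is controlled mainly in translation, these arrays do not read its amount.

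Of 5 regulators of amino acid uptake and nitrogen use, only URE2, the repressor of nitrogen-responsive genes, was called in the mean of HIS+ times. Over all oligos 4.8% were called upward and 3.16% downward there. URE2 was at 0.10 ± 0.03 (SE), with limma's adjusted p of 0.033. Its call was lost on leaving out 8 of the 16 identifiers and with batch as a random block (adjusted p = 0.0962). GLN3 and GAT1, activators of those genes, were at 0.04 and 0.02, DAL80 at 0.02, and STP2, a transcription factor for amino acid permeases, at 0.06. None of the 3 other amino acid synthesis genes was called: MET4 and MET28, transcription factors of sulphur amino acid synthesis, were at 0.07 and 0.04, and MET22, a nucleotide phosphatase needed for methionine synthesis, was at 0.04.

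Single times gave few calls in the HIS+ strain. At 5 min limma called 3 of 1457 oligos (0.206%), all downward, and 10.1% had an unadjusted p under 0.05. At 10 min it called 0 (0%), with 80 (5.49%) at an unadjusted p under 0.05, and at 40 min 0 (0%), with 6.93%. Between 5 and 40 min no oligo was called as changed (0%), and 59 (4.05%) had an unadjusted p under 0.05. At 20 min 18 oligos were called (1.24%), 13 upward (0.892%) and 5 downward (0.343%), and 17.4% had an unadjusted p under 0.05. Leaving out replicate 1 gave 33 calls and leaving out replicate 3 gave 39. The mean of the 4 times gave 116 calls (7.96%), of which 70 were upward (4.8%) and 46 downward (3.16%). It rests on 16 identifiers from 3 batches, which the fit takes as independent, and with batch as a random block the count was 34. Whether the times of a replicate share a culture is not stated in the labels. In some oligos the same replicate kept its place at every time, as the lowest in TDH1 and the highest in GCN4. Where the values of a replicate are linked over the times, the p-values and SE of this mean are too small. Replicate was not fitted as a block.

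The oligos with the smallest p at 10 and 40 min were not called. Oligo 2 of NOG2 was at -0.74, -0.22, -0.32 and -0.16 in the HIS+ replicates of 10 min (limma's adjusted p = 0.441), and oligo 2 of NCB2, a subunit of a transcription repressor complex, at 0.27, 0.28, 0.39 and 0.33 (adjusted p = 0.521). All values of each had one sign, and those of NCB2 were above all his- values of that time. PBS2, the kinase that activates Hog1 under osmotic stress, was at -0.55, -0.07, -0.12 and -0.29 at 40 min (adjusted p = 0.443). Oligo 2 of YRA1, at 0.16, and oligo 3 of TMA20, at -0.13, were among the smallest p at 10 min, and oligo 1 of YOP1, at 0.20, at 40 min.

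The 3 oligos called at 5 min included 2 nuclear tRNA genes, YNCD0021C and YNCB0018W, for which the gene table gives no amino acid. The HIS+ replicates of YNCD0021C were at -1.05, -0.45, -1.07 and -0.13 at 5 min, and those of YNCB0018W at -0.92, -0.26, -1.05 and -0.44. All 8 values were below 0, and replicates 1 and 3 were the lowest of both. The HIS+ means of the 2 oligos were close at every time, so the 8 values may not be separate observations. The group means were -0.67 ± 0.15 and -0.66 ± 0.13 (SE), with limma's adjusted p of 0.0455 and 0.0391. The means then moved from -0.45 and -0.44 at 10 min to 0.01 and 0.03 at 20 min and -0.26 and -0.21 at 40 min. In the his- strain the 5 min means were -0.29 and -0.32, and no strain difference was called at that time. With the depleted culture in Cy5 the HIS+ mean of YNCD0021C at 5 min was -1.02, and in Cy3 it was -0.33. For YNCB0018W these means were -0.98 and -0.34. In Cy3, 1 of 4 arrays of YNCD0021C and 2 of 4 of YNCB0018W were above 0. The calls were lost in the fit with all groups of the collection (adjusted p = 0.432 for both). Leaving out replicate 1 left no call at 5 min, leaving out replicate 3 lost the calls of both tRNA genes (adjusted p = 0.1 and 0.0601) while the count rose to 10, and leaving out replicate 2 lost that of YNCD0021C (0.0604).

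Of the 64 tRNA gene oligos, 40 of nuclear and 24 of mitochondrial genes, 2 were called at 5 min (the share over all oligos was 0.206%), and the list's median was -0.026. In the mean of the 4 times 2 fell and 3 rose, beside 3.16% and 4.8% of all oligos. The highest was SUP61, a serine tRNA gene, at 0.20 (limma's adjusted p = 0.0252). Its call was lost on leaving out 5 of the 16 identifiers and with batch as a random block (adjusted p = 0.114). The third call at 5 min was oligo 2 of RPL26B, a protein of the large ribosomal subunit. Its HIS+ replicates were at -0.34, -0.41, -0.13 and -0.67 at 5 min and its mean was -0.39 ± 0.085 (SE; adjusted p = 0.0455). Its call was lost without replicate 1, 2 or 4. By 10 min the mean was -0.11 and by 40 min -0.02, whereas the his- strain went from -0.10 at 5 min to -0.53 at 40 min.

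The replicate with a single dye orientation bears on the 18 calls at 20 min. All 18 had the sign that the dye effect of batch B gives with the depleted culture in Cy3, and over all oligos that replicate correlated with this dye effect at r = 0.843, against -0.082 to 0.260 for the other replicates of that time. With the dye effect of batch B subtracted from the replicate, no oligo was called at 20 min, and without that replicate 1 was called, oligo 3 of RPS18A at 0.31, which was not among the 18. The single-orientation replicate was further from 0 than the mean of the others in all of the 18 but SSA4, oligo 2 of SNC1 and oligo 3 of TMA20. The largest called estimate was that of SSA4, an inducible cytosolic Hsp70 chaperone, whose HIS+ replicates were at 0.50, 0.34, 0.44 and 1.07. Its mean was 0.59 ± 0.13 (SE; limma's adjusted p = 0.0216), and it was 0.49 (adjusted p = 0.257) with the dye effect subtracted. SSA3, of the same family, was at 0.26, and SDS22, a regulatory subunit of the phosphatase Glc7, at 0.31 (adjusted p = 0.0216 for each).

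The other called oligos of 20 min with an increase were, among those named by the fixed rule, ESA1, a histone acetyltransferase, at 0.47, oligo 2 of KEI1, a subunit of inositol phosphorylceramide synthase, at 0.41, oligo 2 of TAD3, a tRNA adenosine deaminase subunit, at 0.35, and NST1 at 0.34. In ESA1 the single-orientation replicate was at 1.07 and the other replicates between 0.23 and 0.34. The called decreases were MRS1 (-0.26), NOP12 (-0.24), PPR1 (-0.23), GAT4 (-0.18) and oligo 3 of TMA20 (-0.17), where NOP12 is a ribosome assembly factor and PPR1 a transcription factor of pyrimidine synthesis. For oligo 3 of TMA20 the other replicates, at -0.22 to -0.16, lay further from 0 than the single-orientation one, at -0.13.

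**Figure D2:**
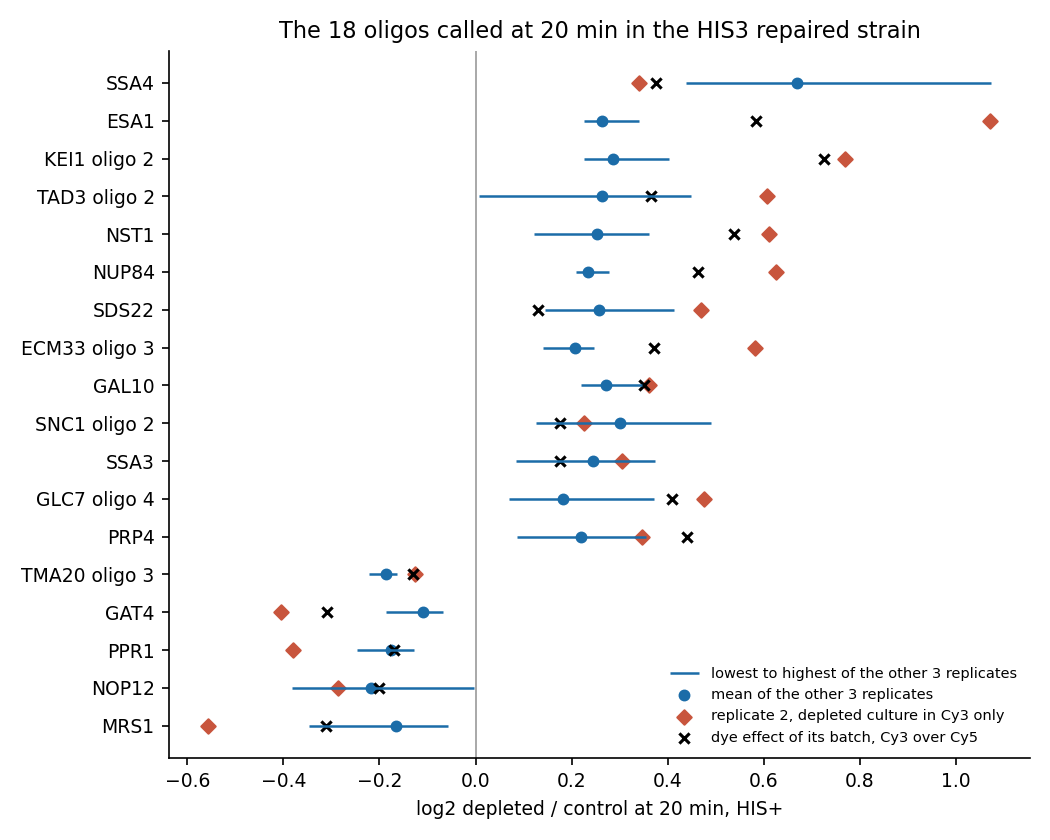
Log2 ratio of the depleted over the control culture at 20 min in the HIS+ strain for the 18 called oligos. Points with lines are the mean and range of 3 replicates, diamonds the replicate with the depleted culture in Cy3 only, and crosses the Cy3 over Cy5 dye effect of its batch; all crosses lie on the side of the called change.

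Some chaperones rose over the HIS+ course. Of 11 chaperone oligos, 4 were called upward and none downward in the mean of the 4 times, beside 4.8% and 3.16% of all oligos. In the list 10 of 11 estimates were above 0, and the median was 0.125 against -0.003 over all oligos. HSP104, the disaggregase, had HIS+ replicates of 0.24, 0.43, 0.10 and 0.64 at 5 min, 0.19, 0.13, 0.06 and 1.23 at 10 min, 0.59, 0.02, 0.79 and 1.07 at 20 min, and 0.21, -0.08, 0.98 and 0.10 at 40 min. Of these, 15 of 16 were above 0, and replicate 4 was the highest at every time but 40 min, when replicate 3 was. The mean was 0.42 ± 0.09 (SE), a ratio of 1.34 (limma's adjusted p = 0.00595). SSA4 was at 0.32 (0.00428), KAR2, the Hsp70 of the endoplasmic reticulum, at 0.22 (0.0137) and SSA3 at 0.16 (0.00171), with the adjusted p in parentheses. LHS1, another chaperone of the endoplasmic reticulum, was the lowest of the list, at -0.01 (0.805). With batch as a random block 3 of the 4 stayed called, and KAR2 did not (adjusted p = 0.0797); with all groups of the collection in the fit none did, with adjusted p of 0.489 for HSP104.

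The 10 general and osmotic stress genes gave no call in the mean of the HIS+ times. Over all oligos 4.8% were called upward and 3.16% downward there. The list's median was 0.025, and its highest member, CUP1-2, a metallothionein gene, was at 0.35 (limma's adjusted p = 0.268). TDH1, an isozyme of glyceraldehyde-3-phosphate dehydrogenase, rose. Its HIS+ replicates were at 0.39, 0.61, 0.11 and 0.08 at 5 min, 0.87, 0.57, 0.10 and -0.001 at 10 min, 0.47, 0.56, 0.28 and -0.32 at 20 min, and 0.75, 0.40, 0.77 and 0.24 at 40 min. Replicate 4 was the lowest at each time, and 14 of 16 values were above 0. The mean was 0.37 ± 0.08 (SE; limma's adjusted p = 0.00654), and it was no longer called without batch B (adjusted p = 0.0765). None of the other 5 glucose and glycogen genes was called.

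**Figure D3:**
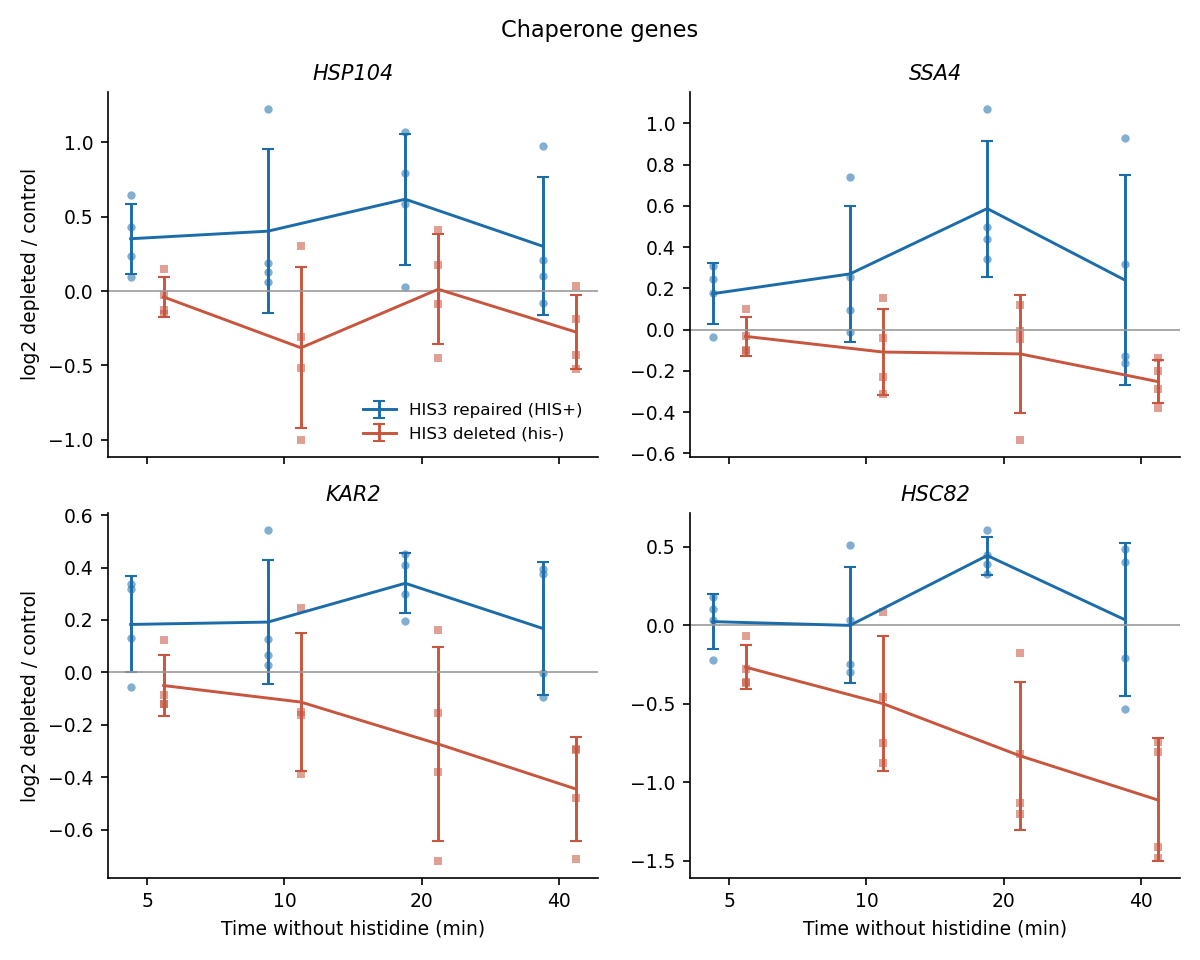
Log2 ratio of the depleted over the control culture for HSP104, SSA4, KAR2 and HSC82 at the 4 times (evenly spaced; vertical scales differ). Circles and squares are replicates of the HIS+ and his- strains and lines with bars join means ± SD; HSC82 in the his- strain goes down to -1.11 at 40 min, while its HIS+ mean is 0.04.

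Only 2 of the 116 oligos called in the mean of the times had one sign in all 16 HIS+ values, SDS22 and oligo 3 of APE2. SDS22 lay between 0.02 and 0.47 and had a mean of 0.21 ± 0.04 (SE), with limma's adjusted p of 0.00161. Its his- group means, 0.14, 0.06, 0.19 and 0.18, were also above 0 at every time. Oligo 3 of APE2, an aminopeptidase, lay between 0.03 and 0.59 and had a mean of 0.28 ± 0.05 (SE; adjusted p = 0.00161). Both stayed called with batch as a random block (adjusted p = 0.0104 and 0.0145) and without batch B (0.0126 for each). The median size of the 116 estimates was 0.134. With batch as a random block 34 of the 116 stayed called, and without batch B 38. With all groups of the collection in the fit 1 did, ADE12. Leaving out replicate 1 at 5 min gave 65 calls and leaving out replicate 4 at 10 min gave 68.

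Ribosomal protein oligos gave 26 of the calls in the mean of the times, with changes in both directions. Of 330 oligos, 18 fell and 8 rose, beside 3.16% and 4.8% of all oligos. The list's median was -0.022, and its lowest member, oligo 2 of RPL7A at -0.28, was not called (limma's adjusted p = 0.182). The lowest called were RPL1A and oligo 2 of RPS22B, each at -0.22, followed by oligo 3 of RPL24B at -0.20 and RPS31 at -0.20, all picked after their values were seen. The highest was oligo 1 of RPL42A at 0.23 ± 0.07 (SE; limma's adjusted p = 0.0312; lost on leaving out 7 of the 16 identifiers). With batch as a random block RPL1A, oligo 3 of RPL24B, RPS31 and oligo 1 of RPL42A lost their calls (adjusted p = 0.0821, 0.143, 0.0783 and 0.0718), and oligo 2 of RPS22B kept its (0.0279). Oligo 2 of RPS22B was at -0.24, -0.16, -0.14 and -0.23 at 20 min and at -0.26, -0.12, -0.15 and -0.40 at 40 min, all below 0. With batch as a random block, 6 of the 26 stayed called.

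Ribosome assembly factors were near 0 in the HIS+ strain. Of 50 oligos of 46 genes, 4 fell and 1 rose in the mean of the 4 times, beside 3.16% and 4.8% of all oligos, and the median was -0.028. The lowest was oligo 2 of NOG2, a GTPase of large-subunit assembly, at -0.21 ± 0.05 (SE; limma's adjusted p = 0.00566), and the highest was the RNA helicase DBP7 at 0.29 (adjusted p = 0.0439; lost on leaving out 8 of the 16 identifiers and with batch as a random block, at 0.166). At 40 min the medians of the list in the HIS+ replicates were 0.12, 0.04, -0.33 and 0.09. Replicate 3, of batch C, was apart from the others at 20 min too, with -0.26.

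Other lists gave few calls in the mean of the HIS+ times, where 4.8% of all oligos were called upward and 3.16% downward. Among 99 splicing factor oligos 2 rose and none fell: PRP46, at 0.08, and CWC2, at 0.11, both of the complex that activates the spliceosome. The list's median was -0.006. Of 35 RNA decay oligos 1 fell, the nuclear exonuclease gene RAT1, at -0.13 (limma's adjusted p = 0.0252; lost on leaving out 3 of the 16 identifiers). Of 16 oligos of RNA polymerase I and III genes 1 fell, the RNA polymerase I factor RRN6, at -0.125 (picked, like PRP46 and CWC2, after its values were seen). The 17 mating and 7 phosphate and inositol oligos gave no call, and of 38 meiosis and sporulation oligos 3 rose, the highest being oligo 3 of HOP2 at 0.17 (adjusted p = 0.0377; lost on leaving out 9). With batch as a random block the calls of PRP46, CWC2, RAT1 and HOP2 were lost (adjusted p = 0.122, 0.128, 0.0797 and 0.128), and that of RRN6 was kept (0.0473).

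Differences between oligos of one gene were examined because the arrays were made to study splicing. Among 702 oligos of 231 genes, 55 (7.83%) departed from the mean of their gene's other oligos in the mean of the HIS+ times, 26 upward (3.7%) and 29 downward (4.13%). The called oligos belonged to 39 genes, and 14 of these genes had calls in both directions. Each oligo was set against the others of its gene, so calls within a gene are not separate results. The departures were between 0.083 and 0.308 in size, and none had one sign in all 16 values. The largest was oligo 1 of ECM33, a cell wall protein gene, at -0.31, whose oligo 3 was at 0.26 (limma's adjusted p = 0.0289 and 0.0104). Oligo 1 of RPL42A was 0.26 above and its oligo 2 0.24 below the others (adjusted p = 0.0216 and 0.0386). These 4 oligos were picked after their values were seen. With batch as a random block 3 oligos stayed called, oligo 3 of APE2 at 0.25, oligo 2 of NCB2 at 0.23 and oligo 2 of TAD3 at 0.21. Without batch B 6 were called. The count was 15 without replicate 1 of 5 min, 19 without replicate 4 of 5 min, 22 without replicate 4 of 10 min, 33 without replicate 1 of 20 min and 18 without replicate 4 of 40 min.

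No strain difference was called at the early times. At 5 min no oligo was called as different in response between HIS+ and his- (0%; 26, or 1.78%, had an unadjusted p under 0.05 in limma's test), and at 10 min 0 were called (0%), with 107 (7.34%) at an unadjusted p under 0.05. Without his- replicate 4 there were 5 at 10 min, 1 higher and 4 lower in HIS+. The smallest p at 10 min belonged to oligo 1 of MPT5, an mRNA-binding Pumilio protein, at 0.34 (adjusted p = 0.29). At 20 min 49 of 1457 oligos differed (3.36%), 23 with the higher value in HIS+ (1.58%) and 26 with the lower (1.78%). At 20 min 19.9% had an unadjusted p under 0.05. At 40 min 10.6% of the oligos differed, 62 being higher (4.26%) and 92 lower (6.31%) in HIS+. Of the oligos called at 20 min, 29 were also called at 40 min, all in the same direction. At 40 min the his- mean was the larger in size for 94.8% of the called oligos, against 67.5% of all oligos. At 20 min it was for 79.6%, against 56.2%. The replicates of the strains did not overlap at 40 min for 114 of the called oligos, and for 241 of all 1457 (16.5%). The called oligos were chosen by the strain difference, so these contrasts with all oligos follow in part from that choice.

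**Figure D4:**
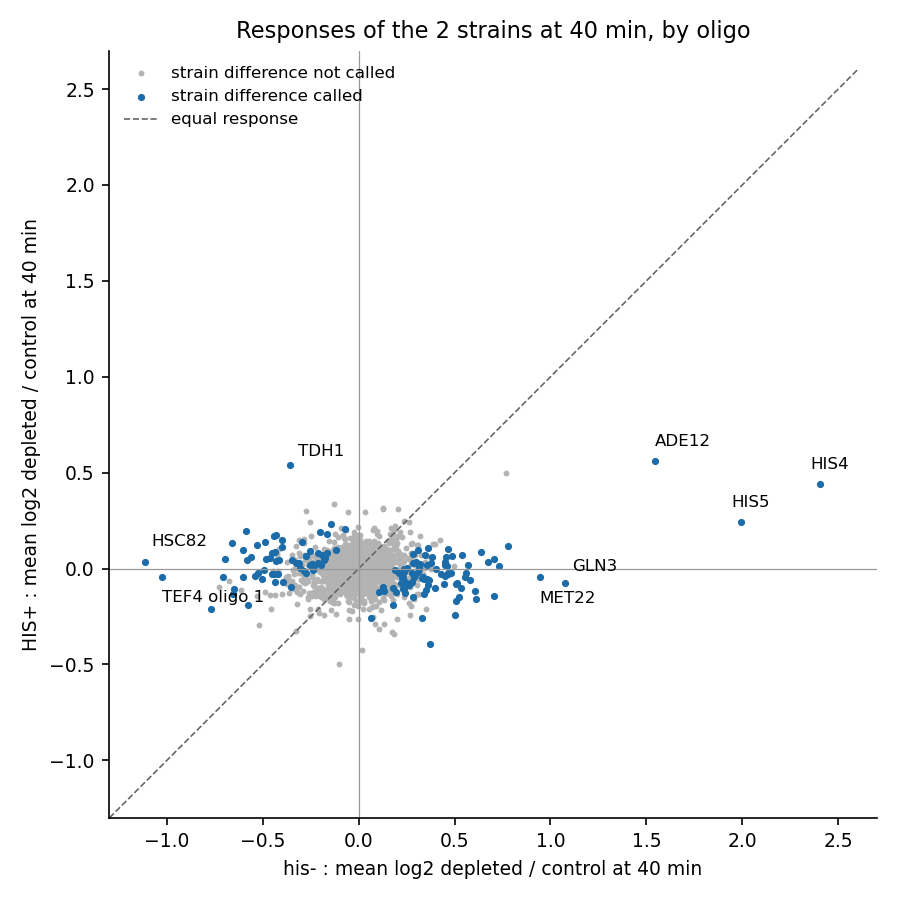
Mean log2 ratio of the depleted over the control culture at 40 min for each of 1457 named oligos, in the his- strain (horizontal) and the HIS+ strain (vertical). Blue points are the 10.6% of oligos called for a strain difference, and the dashed line marks equal responses; most blue points spread along the horizontal axis and stay near 0 on the vertical one.

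Of the 3 histidine synthesis genes, HIS4 and HIS5 showed the largest strain differences of all oligos at 40 min, and HIS2, at -0.24, was not called (limma's adjusted p = 0.0924). For HIS4 the response was lower in HIS+ by a log2 difference of -1.96 ± 0.32 (SE), with a 95% interval from -2.62 to -1.31 and limma's adjusted p of 5.98e-04. Within batches A, B and C the difference was -2.02, -2.50 and -1.32. For HIS5 it was -1.75 ± 0.24 (adjusted p = 9.01e-05), and for ADE12 -0.98 ± 0.22 (0.00476). All 3 kept their call when any single replicate of either strain was left out. At 20 min the differences were -1.36, -1.13 and -0.86, and that of HIS5 lost its call without his- replicate 1 (adjusted p = 0.0714). At 20 min the ADE12 call was lost with the dye effect subtracted (0.0564), and all 3 were lost without batch B (0.175, 0.166 and 0.187). At 40 min ADE12 alone of the 3 was lost without batch B (0.0771). At 10 min HIS4 was at -0.66, with an interval from -1.31 to -0.003 that did not pass the adjustment (adjusted p = 0.675).

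Other genes of amino acid synthesis, uptake and nitrogen use in the lists were also lower in HIS+ at 40 min, beside 6.31% of all oligos. All 3 genes of other amino acid synthesis were called: MET22 (picked after its values were seen) at -0.98, MET28 at -0.66 and MET4 at -0.42, where the HIS+ means were -0.04, 0.12 and 0.07 and the his- means 0.94, 0.78 and 0.485. Of the 5 uptake and nitrogen regulators, GLN3 (-1.15), STP2 (-0.45) and URE2 (-0.43) were called. In GLN3 the HIS+ replicates were at -0.001, -0.14, 0.09 and -0.24 and the his- replicates at 1.304, 1.09, 1.45 and 0.46. GCN2 was lower in HIS+ by -0.37 (limma's adjusted p = 0.0197), and GCN4, at -0.34, was not called (adjusted p = 0.35). LYS14, a transcription factor of lysine synthesis picked here after its values were seen, was at -0.845 (adjusted p = 6.71e-04). SHR3, a packaging chaperone for amino acid permeases in none of the lists, went the other way, at 0.51 (adjusted p = 0.00634). Without batch B the calls of MET28, GCN2 and SHR3 were lost (limma's adjusted p = 0.218, 0.176 and 0.0771). With all groups of the collection in the fit, only MET22 and LYS14 of these genes stayed called (4.03e-04 and 3.71e-04). The replicates of the strains overlapped in MET28.

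Genes of ribosome assembly differed the other way at 40 min. Of 50 ribosome assembly oligos 12 were higher in HIS+ and none was lower, beside 4.26% and 6.31% of all oligos. None of the 12 stayed called without batch B (limma's adjusted p from 0.0771 to 0.408). With all groups of the collection in the fit none did either (0.0652 to 0.559). Of the 12, only NHP2 and HAS1 had replicates of the strains that did not overlap. Of the list, 48 of 50 differences were above 0, and the median was 0.279 against 0.002 over all oligos. The medians of the group means were 0.004 in HIS+ and -0.292 in his-. DRS1, an RNA helicase and the highest of the list, chosen after its values were seen, had HIS+ replicates of 0.58, 0.19, -0.36 and 0.37 and his- replicates of -0.78, -0.78, -0.48 and -0.32. In HIS+ replicate 3 alone was below 0, and it fell within the his- range. The difference was 0.79 ± 0.18 (SE; limma's adjusted p = 0.00618). Of 7 purine synthesis oligos 3 were higher in HIS+ and 2 lower. The higher ones were IMD3, at 0.62, and oligos 2 and 3 of IMD4, at 0.55 and 0.79, genes of inosine monophosphate dehydrogenase in guanine nucleotide synthesis. The lower ones were ADE12 and BAS1, a transcription factor of purine and histidine genes, at -0.47. IMD3, IMD4 and BAS1 were picked after their values were seen. Their calls were all lost without batch B (limma's adjusted p from 0.0564 to 0.318). With all groups of the collection in the fit they were lost too (0.0672 to 0.542). The replicates of the strains overlapped in both oligos of IMD4.

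Of 99 splicing factor oligos 6 were lower and 2 higher in HIS+ at 40 min, beside 6.31% and 4.26% of all oligos, with a median of -0.039. The lowest was HRB1, an RNA-binding export protein, at -0.59, and the higher ones were NPL3 and PRP11, a protein of the U2 particle, at 0.25. RNA decay oligos divided evenly, with 3 of 35 higher, led by the exosome helicase MTR4 at 0.52, and 3 lower, led by AIR2, a partner of that helicase, at -0.35. Of 17 mating oligos 3 were lower, with the signalling regulator SST2 at -0.63, and none was higher. Apart from NPL3 these genes were picked after their values were seen. Without batch B the calls of NPL3, PRP11, MTR4, AIR2 and SST2 were lost (limma's adjusted p = 0.147, 0.196, 0.212, 0.0771 and 0.0771). With all groups of the collection in the fit they were lost too (0.256, 0.204, 0.363, 0.847 and 0.105). HRB1 kept its call in both settings (0.0302 and 0.00145). The replicates of the strains overlapped in MTR4.

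Of 11 chaperone oligos 5 were higher in HIS+ at 40 min and 3 at 20 min, beside 4.26% and 1.58% of all oligos, and none was lower at either time. HSC82, a cytosolic Hsp90 chaperone, had HIS+ replicates of 0.45, 0.39, 0.33 and 0.61 and his- replicates of -1.20, -0.82, -1.14 and -0.18 at 20 min, with no overlap. The difference was 1.28 ± 0.23 (SE; limma's adjusted p = 0.00337), and 1.08 (0.0294) with the dye effect subtracted. At 40 min the HIS+ replicates were at 0.49, -0.53, 0.40 and -0.21, against -1.48, -0.74, -1.42 and -0.81 in his-, and the difference was 1.15 ± 0.23 (adjusted p = 0.00271). Within batch B alone it was 0.21, and within A and C 1.28 and 1.82. KAR2 differed by 0.61 at both times and SSA4 by 0.70 at 20 min (adjusted p = 0.0249 and 0.032 at 20 min), but neither call at 20 min held with the dye effect subtracted (0.113 and 0.116). SSA1, SSA2 and SSB1, Hsp70 chaperones of the cytosol picked after their values were seen, differed at 40 min by 0.66, 0.53 and 0.47. The replicates of the strains overlapped in SSA1 and SSA2 but not in SSB1. With all groups of the collection in the fit SSB1 kept its 40 min call (limma's adjusted p = 0.0279). SSA1, SSA2, KAR2 and HSC82 lost theirs (0.363, 0.673, 0.509 and 0.0516). Without batch B SSA1 lost its call (0.096), and so did all 3 chaperone oligos called at 20 min (0.106 for HSC82).

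**Figure D5:**
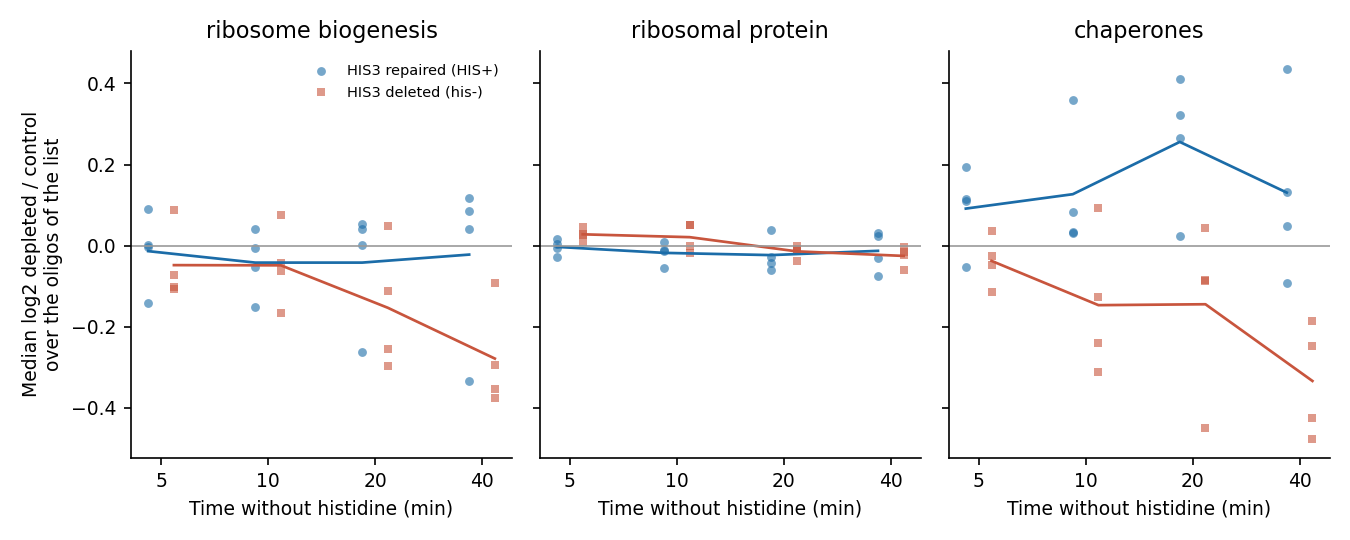
Median log2 ratio of the depleted over the control culture over the oligos of 3 gene lists (50 ribosome assembly, 330 ribosomal protein and 11 chaperone oligos), for each replicate (points) and as the mean of the replicates (lines), by time and strain. At 40 min the ribosome assembly medians are 0.12, 0.04, -0.33 and 0.09 in HIS+ and all below 0 in his-.

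Ribosomal protein oligos were called in both directions at 40 min. Of 330 oligos 16 were higher in HIS+ and 6 lower, beside 4.26% and 6.31% of all oligos. The share called higher was near that of all oligos, and the share called lower was below it. RPL10 was lower in HIS+, with HIS+ replicates of -0.61, -0.01, -0.01 and -0.04 and his- replicates of 0.75, 0.40, 0.78 and 0.10, a difference of -0.67 ± 0.15 (SE; limma's adjusted p = 0.00434). In this gene and in RPL15A, at -0.77, and oligo 1 of RPS9A, at -0.77, HIS+ replicate 1 was far below the other replicates: RPL15A stood at -1.52 in it and between -0.10 and 0.12 in the others, and oligo 1 of RPS9A at -1.11 against 0.08 to 0.27. RPL15A and RPS9A were picked after their values were seen. Oligos 1 and 3 of RPS21A were higher in HIS+ by 0.43 and 0.39, and oligo 2 of RPS25B by 0.39. The calls of oligo 3 of RPS21A and of RPS25B were lost on leaving out 5 and 2 of the 8 replicates. Without batch B no ribosomal protein oligo named here stayed called (limma's adjusted p = 0.0649 for RPL10, 0.096 for RPL15A and 0.0902 for RPS9A). With all groups of the collection in the fit RPL10, RPL15A and RPS9A kept their calls (0.00983, 0.00809 and 0.0131), and RPS21A and RPS25B did not.

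The remaining oligos named by the fixed rule in the strain differences included NPL3, of the splicing factor list, TDH1, of the glucose and glycogen list, and several in no list. At 20 min MAL33, a maltose activator gene (-0.79), CAF4, of mitochondrial fission (-0.61), SIS2, a phosphatase inhibitor (-0.50), and POP1, of RNase P (-0.49), were lower in HIS+, and SHR3 (0.54) and oligo 2 of KEI1 (0.51) were higher. With the dye effect subtracted KEI1 was at 0.325 and not called (limma's adjusted p = 0.144), and its call was lost on leaving out 3 of the 8 replicates. SHR3 was at 0.12, 0.20, 0.23 and 0.17 in the HIS+ replicates and at -0.89, -0.30, -0.16 and -0.11 in his-. Those replicates did not overlap, and the difference held with the dye effect subtracted (limma's adjusted p = 0.00963 before and 0.0294 after). Without his- replicate 1 SHR3, MAL33, CAF4 and POP1 were not called (adjusted p = 0.0714, 0.116, 0.0983 and 0.0714). Without HIS+ replicate 2 neither were MAL33, CAF4 and POP1 (0.064, 0.0517 and 0.0516). SIS2 kept its call on leaving out any single replicate. Without batch B none of these oligos was called at 20 min (limma's adjusted p = 0.106 for SIS2). At 40 min TDH1 was higher in HIS+ by 0.89 ± 0.23 (SE; adjusted p = 0.0139) and the splicing and export factor NPL3 by 0.38 (0.0326), while MAL33 was lower, at -0.67 (0.0214). The call of TDH1 was lost without his- replicate 1 (adjusted p = 0.0748), and those of NPL3 and MAL33 on leaving out 5 of the 8 replicates.

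The strain differences rested on the replicates to different degrees. At 20 min the count of 49 was 25 with the dye effect subtracted and 0 without batch B, and 22 without HIS+ replicate 2. Leaving out his- replicate 1 gave 8 calls at 20 min, his- replicate 2 gave 26, his- replicate 3 gave 28, his- replicate 4 gave 97 and HIS+ replicate 4 gave 31. At 40 min the 62 higher and 92 lower oligos all stayed called with batch as a fixed block. Without batch B 16 were called, and leaving out 1 replicate gave the fewest calls, 73, without his- replicate 2, with 91 without replicate 1 of either strain, 95 without HIS+ replicate 2 and 36 higher and 65 lower without HIS+ replicate 4.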

How the data were processed

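Total RNA was extracted with acid phenol and labelled through aminoallyl-dUTP incorporated during cDNA synthesis, per the labels. The deposited values are read as log2 ratios of channel 1 over channel 2 per spot; channel 1 was the depleted culture on every array of both histidine courses, so no sign was changed. The log base, background correction and normalization are not given in the sources used here, and base 2 was assumed. Array medians lay near 0, so the deposited log2 values were not rescaled. No spot intensities were used here, so signal over background was not examined, and the number of arrays limits the precision. No tool or genome build is given in the sources used here.

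Each array has 9216 spots holding 1536 oligos in 6 copies, of which 1457 carry a gene symbol and 79 none; all 8742 named spots matched the RefSeq R64 gene table. The platform annotation can be old. Copies were averaged, then dye orientations, into 1 value per identifier; 1 HIS+ identifier at 20 min has 1 orientation. Missing spots were between 0.217% and 18.3% of an array of either strain. HIS3 is not analysed here. Replicates are numbered in accession order; the number follows the batch but pairs no single samples, since batch A holds 2 per group.

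limma 3.58.1 (lmFit and eBayes, R 4.3.3) fitted 8 groups and 32 identifiers of both strains (24 residual and 4.38 prior degrees of freedom); tests were two-sided, with Benjamini-Hochberg adjusted p over 1457 named oligos (702 within genes). The script was tested on simulated data. Figures were drawn with matplotlib 3.10.9. Alternatives were copy medians, centring, noisy oligos, dye orientations, batch as a block, all groups of the collection in the fit and left-out replicates; those on the single-orientation replicate and batch B were chosen after seeing the data. Members and lists were chosen with earlier results of these data known. Named by rule were, for each comparison, the 5 highest and 5 lowest called oligos with one sign in every HIS+ replicate (or, with under 3 called, the 5 smallest p), list extremes, and all members of the histidine, amino acid control and uptake lists; others are said to be picked after their values were seen.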

Additional observations from a re-analysis of the deposited data

Results flagged for a closer look

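Single HIS+ replicates stood apart in 2 of the results on named oligos, and chance flags about 1 in 20 groups of this size. For oligo 2 of YRA1 at 10 min the replicate at 0.294 was far above the others, and for ESA1 at 20 min it was the replicate at 1.071, which has the depleted culture in Cy3 only.

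A test of the difference between the strains' responses, by limma in the fit across all oligos, separated HIS+ from his- for 10 named oligos at 20 min. As log2 differences, HIS+ was lower for HIS5 (-1.131), MAL33 (-0.790), CAF4 (-0.611), SIS2 (-0.504) and POP1 (-0.488). HIS+ was higher for oligo 2 of KEI1 (0.507), SHR3 (0.543), KAR2 (0.612), SSA4 (0.705) and HSC82 (1.276). With the dye effect subtracted KEI1 (0.325), KAR2 (0.517) and SSA4 (0.612) were not called. None of the 10 was called without batch B. The same test did so for 10 named oligos at 40 min. HIS+ was lower for HIS4 (-1.964), HIS5 (-1.750), ADE12 (-0.983), RPL10 (-0.673) and MAL33 (-0.669). It was higher for NPL3 (0.378), oligo 2 of RPS25B (0.390), oligos 3 and 1 of RPS21A (0.394 and 0.430) and TDH1 (0.894). Of the oligos named at 40 min, only HIS4 and HIS5 stayed called without batch B.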

How the results depend on the processing

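No paired analysis was possible because the labels give no replicate numbers that pair single samples (batch A holds 2 per group); matching by batch was possible, and batch as a fixed block gave 66 and 199 calls for the strain differences at 20 and 40 min. Counts of called oligos are given for 5 min, 10 min, 20 min, 40 min, the mean of the times, the strain difference at 20 and 40 min and the within-gene test, where they moved by over 1.5 times. With the depleted culture in Cy5 only, where the dye effect stays in each value, they were 388, 284, 168, 292, 776, 9, 36 and 370, and in Cy3 only 361, 298, 300, 268, 818, 2, 70 and 355. With the 1093 least noisy oligos only, the 20 min count was 9. Batch as a random block gave 34 for the mean and 3 within genes. All groups of the collection in the fit gave 0 at 5 min, 0 at 20 min, 2 (ADE12 and CTR9) for the mean, 5 and 14 for the strain differences and 0 within genes. With the dye effect subtracted from the single-orientation replicate, chosen after seeing the data, 5 min gave 1 (YNCB0018W), 20 min 0, the 20 min strain difference 25 and within genes 29. Without batch B, also chosen after seeing the data, 5 min gave 0, 20 min 0, the mean 43, the strain differences 0 and 16, and within genes 6. Fewer samples were fitted without batch B; elsewhere the cause was not tested.

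Leaving out 1 replicate gave 0 to 10 calls at 5 min, 1 to 39 at 20 min, 65 to 121 for the mean, 0 to 5 for the strain difference at 10 min, 8 to 97 at 20 min, 73 to 195 at 40 min and 15 to 80 within genes. It gave 0 throughout at 10 min, at 40 min, for 40 against 5 min and for the strain difference at 5 min.

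Of 2055 values of named oligos under an alternative, 1698 kept direction and side of the threshold, 289 lost the call, 47 gained it and 21 reversed, all 21 with 1 dye orientation. In Cy5 only, reversed values at 20 min were 0.048 for MRS1, 0.264 for GAT4, -0.197 for oligo 2 of KEI1 and -0.029 for ESA1. For the mean they were 0.234 for HIS2, 0.127 for GCN2, 0.008 for oligo 3 of ASC1, -0.022 for URE2, -0.342 for GLN3, -0.200 for oligo 3 of RPO26, -0.334 for SNT309, -0.344 for RRP45, 0.172 for LHS1, 0.312 for oligo 1 of DMC1 and -0.069 for oligo 3 of HOP2. In Cy3 only they were 0.183 for GCN1, 0.240 for oligo 2 of ASC1, -0.236 for GAT1, -0.380 for DAL80, 0.177 for SNF1 and 0.162 for MATALPHA1.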
